A study of Cavia porcellus with 34 samples.

Results

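Messenger RNA of 10 genes that mark astrocytes was examined in the PVN (paraventricular nucleus, where the brain's hormonal response to stress begins) of juvenile female guinea pigs descended from dams given synthetic glucocorticoid or vehicle in pregnancy. The genes were taken by symbol: SLC1A2, SLC1A3, GLUL, AQP4, GJA1, GFAP, S100B, ALDH1L1, ALDOC and SOX9. All 10 were found in each of the 3 deposited tables and passed the filter on low values, where F1 lists 12114 genes (11874 tested), F2 lists 12207 (11965 tested) and F3 lists 12068 (11866 tested). Pregnant founders (F0) had received repeated courses of the synthetic glucocorticoid betamethasone (sGC) or of saline vehicle (Veh), and the paternal line was followed from F1, exposed in the womb, to F2 and F3, which received no treatment. Each animal was a female of the Dunkin-Hartley stock, sampled on postnatal day 40. F1 held 5 Veh and 5 sGC animals, F2 held 5 and 5, and F3 held 6 and 6. The tissue was a bulk micropunch that contained the PVN and could hold adjoining hypothalamus, so fewer astrocytes and less of a transcript per astrocyte cannot be told apart.

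Astrocytes are the glial cells that wrap synapses and blood vessels. They clear glutamate from the synaptic cleft through the transporters encoded by SLC1A2 and SLC1A3, turn it into glutamine with the enzyme encoded by GLUL, and move water and ions at their end-feet, where the water channel encoded by AQP4 is concentrated. In the PVN, the withdrawal or advance of astrocyte processes around oxytocin and vasopressin neurons is a known form of plasticity, and GLUL is a long-known target gene of the glucocorticoid receptor. Some of the markers are shared: oligodendrocytes also make GLUL and S100B, and the cells that line the third ventricle (tanycytes and ependymal cells) also make GFAP, AQP4 and SOX9.

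The deposited values are counts per gene that the authors had normalized and rounded to whole numbers, called normalized counts here. Their sum per animal, in M (mega), spanned 15.57 to 21.94 M for F1, 15.65 to 19.44 M for F2 and 18.69 to 18.98 M for F3. Tests used limma on log2(value + 1) within a generation, and fold changes are on that scale. The labels do not say whether animals of a group shared a litter, so p-values measure the spread between these animals. The number of reads per gene was not kept by the normalization, which leaves the counting error of each value unknown. In F3, 2 sGC animals (SGM21 and SGM22) came from a second sequencing batch that held no Veh animal among those tested, so values with the first batch alone are given where they changed a direction.

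In no generation did an astrocyte gene reach an adjusted p-value under 0.05 on the deposited scale (limma, Benjamini-Hochberg over all genes tested). In F1, SLC1A2 and GLUL, 2 of 10, were higher in sGC at an unadjusted p-value under 0.05. The exact permutation test also placed 2 of 10 under 0.05, against 10.8% of all F1 genes. Among all F1 genes, 12.1% were higher and 1.46% lower at an unadjusted p-value under 0.05, 0.657% passed the adjusted threshold, and 2.04% had groups that did not overlap, against 0 of 10 astrocyte genes. The median log2 fold change of the 10 genes was 0.16 and that of all genes 0.07, and 9 of the 10 lay above 0, as did 63.8% of all genes.

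In F2, 0 of 10 astrocyte genes passed at either threshold or in the exact permutation test, where 10.4% of all genes had an exact permutation p-value under 0.05, 2.49% were higher and 9.17% lower at an unadjusted p-value under 0.05, and 0% passed the adjusted threshold. None of the 10 had groups apart, against 2.4% of all genes. In F3, ALDH1L1 was higher and S100B lower at an unadjusted p-value under 0.05, which is 1 of 10 each way against 6.19% and 6.92% of all genes. The exact permutation test placed SOX9 alone under 0.05 there, 1 of 10 against 12.5% of all F3 genes. Of all F3 genes 0.0506% passed the adjusted threshold and 1.21% had groups apart, again against 0 of 10. In both F2 and F3, 5 of the 10 fold changes were above 0 and 5 below, where 24.5% of all genes lay above 0 in F2 and 49% in F3. Of the 10 genes, 8 in F1, 7 in F2 and 6 in F3 lay above the median of all genes. The 95% confidence intervals of the fold changes had half-widths of 0.26 to 0.48 in F1, 0.23 to 0.96 in F2 and 0.07 to 0.32 in F3 on the log2 scale.

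**Figure D1:**
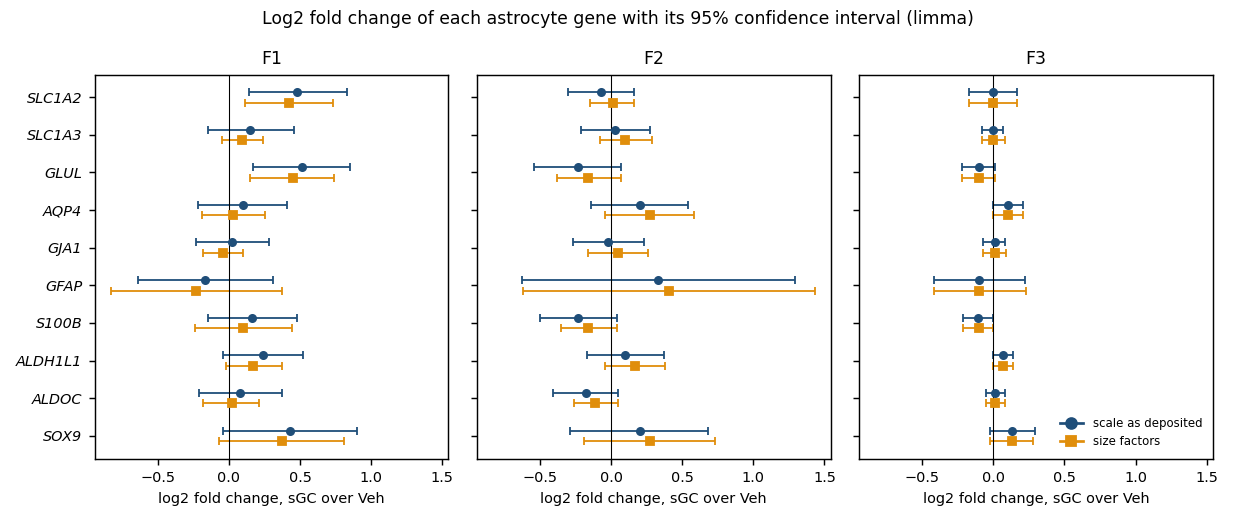
Log2 fold change of sGC over Veh (horizontal axis, log2 scale) for each astrocyte gene, in 1 panel per generation, with 95% confidence intervals from limma. Circles are the values as deposited and squares those after division by size factors. In F1 the intervals of SLC1A2 and GLUL lie above 0, at 0.48 and 0.51 on the deposited scale, and the F2 interval of GFAP is the widest shown.

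Of the genes that clear glutamate, the F1 log2 fold changes were 0.51 for GLUL, 0.48 for SLC1A2 and 0.15 for SLC1A3. GLUL, the glutamine synthetase, had 37443, 37983, 31091, 26385 and 28142 normalized counts in the F1 Veh animals and 52158, 65599, 36032, 39775 and 39084 in the F1 sGC animals. All 5 sGC animals were above the Veh median, and a single sGC animal, at 36032, lay inside the Veh range. The mean was 32209 ± 5302 (SD, n = 5) in Veh and 46530 ± 12314 (SD, n = 5) in sGC. This gave a log2 fold change of 0.51 ± 0.16 (SE) with a 95% interval from 0.17 to 0.85 (limma, unadjusted p = 0.004918, adjusted p = 0.1424), and the exact permutation p-value of the F1 difference was 0.03175.

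SLC1A2, which encodes the main glutamate transporter of the mature forebrain (GLT-1), had 20040, 26080, 19008, 15460 and 18449 normalized counts in F1 Veh and 26799, 42808, 22879, 24811 and 23278 in F1 sGC. All sGC animals were again above the Veh median, and 3 of the 5 lay below the highest Veh animal. The log2 fold change was 0.48 ± 0.17 (SE) with an interval from 0.14 to 0.83 (limma, unadjusted p = 0.007775, adjusted p = 0.1735; exact permutation p = 0.03175). Animal SGM8 was the highest sGC animal for both genes. Without it the log2 fold change was 0.38 for GLUL and 0.32 for SLC1A2, which is 1 of 10 omissions. Over all F1 omissions the unadjusted p-value stayed between 0.001624 and 0.0195 for GLUL and between 0.003471 and 0.03454 for SLC1A2, and no adjusted p-value fell under 0.05.

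SLC1A3, the other astrocyte glutamate transporter (GLAST), had 62117, 67148, 51896, 43494 and 43578 normalized counts in F1 Veh and 59424, 69285, 56357, 57543 and 52521 in F1 sGC. The groups overlapped over most of their range. The log2 fold change was 0.15 ± 0.15 (SE) with an interval from -0.15 to 0.46 (limma, adjusted p = 0.7226).

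The call on GLUL in F1 depended on how libraries were scaled. The F1 totals differed between animals. With each library divided by its median-of-ratios size factor, 17.3% of all F1 genes passed the adjusted threshold and 14.2% had groups apart. Of the astrocyte genes 1 of 10 passed, GLUL, whose log2 fold change was then 0.45 (limma, adjusted p = 0.04227), and 1 of 10 had groups apart, SLC1A2, whose log2 fold change was then 0.42 (limma, adjusted p = 0.0607). A share of 1 in 10 is below both of these backgrounds. Quantile normalization placed both SLC1A2 (0.49, adjusted p = 0.01739) and GLUL (0.49, adjusted p = 0.02687) under the threshold in limma, 2 of 10 against 17.6% of all F1 genes. Scaling to the library total placed 1 of 10 there, GLUL, against 16.4% of all F1 genes.

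**Figure D2:**
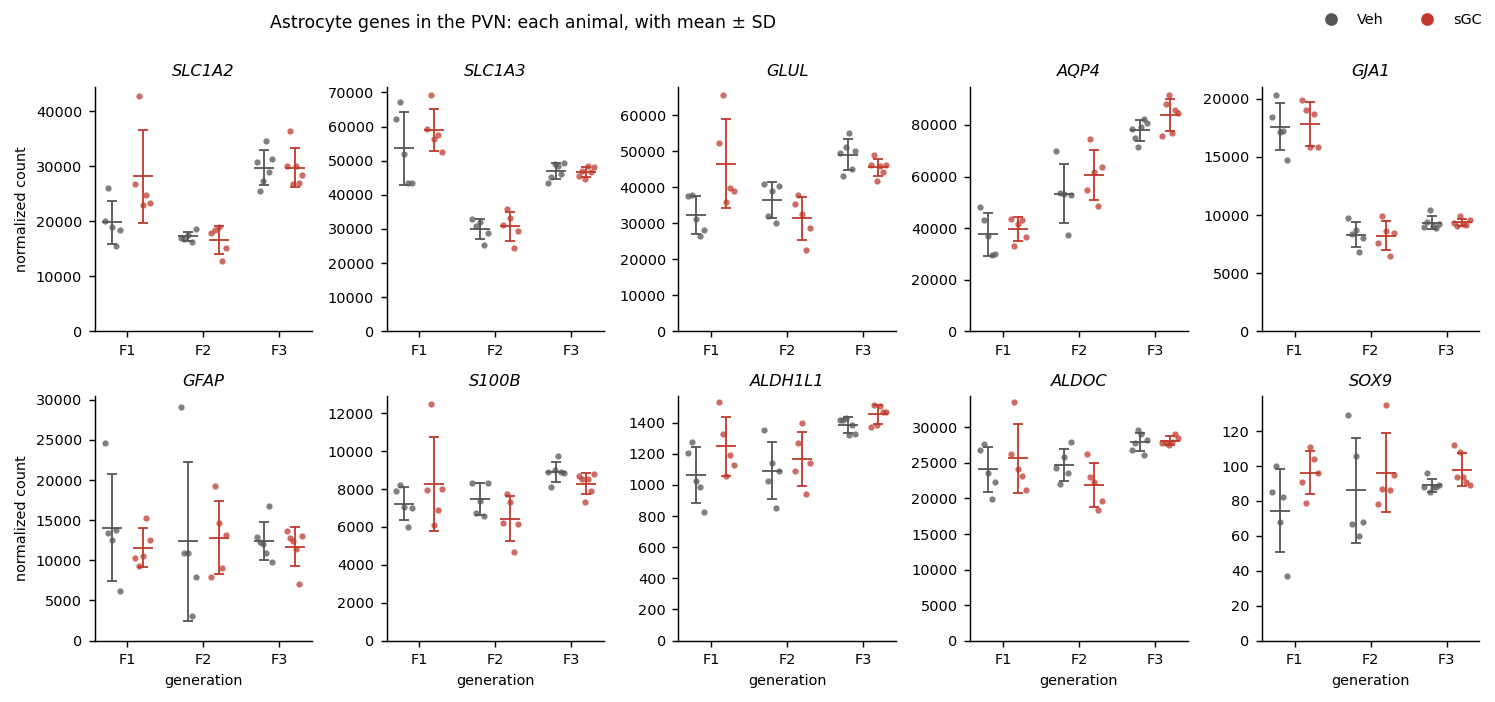
Normalized counts (vertical axis, from 0) of each astrocyte gene by generation, with 1 point per animal and the mean ± SD of each group, for Veh in grey and sGC in red. For GLUL and SLC1A2 in F1, all 5 sGC animals lie above the Veh median. GFAP in Veh spreads from 3088 to 29089 in F2, and the F3 groups are tight for most genes. Tables were normalized apart, so levels are not comparable between generations.

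In F2 the glutamate genes gave other values. GLUL was at 40961, 32109, 39069, 30151 and 40397 normalized counts in Veh and at 35317, 37729, 32507, 22669 and 28565 in sGC, with 0 of 5 sGC animals above the Veh median. Here sGC minus Veh was -0.23 ± 0.14 (SE) on the log2 scale with an interval from -0.54 to 0.07 (limma, adjusted p = 0.5473). SLC1A2 was at 16974, 16827, 17457, 16249 and 18608 in Veh and at 17810, 18311, 18934, 12778 and 15046 in sGC, with a log2 fold change of -0.07 and an interval from -0.30 to 0.16. The Veh animals lay close together and 2 sGC animals below all of them. SLC1A3 ranged from 25423 to 32852 in F2 Veh and from 24389 to 35777 in F2 sGC (log2 fold change 0.03, interval -0.21 to 0.27).

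In F3, GLUL ranged from 42998 to 55078 normalized counts in Veh with a median of 49782, and from 41729 to 48917 in sGC with a median of 46054. All 6 sGC animals were below the Veh median. The log2 fold change was -0.10 ± 0.05 (SE) with an interval from -0.22 to 0.01 (limma, unadjusted p = 0.07793, adjusted p = 0.4469). SLC1A2 ranged from 25418 to 34503 in Veh (median 29862) and from 26676 to 36392 in sGC (median 29130), and its interval of -0.17 to 0.17 was centred near 0. SLC1A3 was the most even of the glutamate genes in F3, from 43418 to 49217 in Veh (median 47221) and from 44617 to 48498 in sGC (median 46956), with an interval from -0.08 to 0.07.

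The difference of each gene's fold change between generations was tested by exact permutation of the treatment labels within generations, 30 tests in all. After adjustment 0 of 30 passed. The smallest p-values belonged to GLUL, for which F1 exceeded F3 by 0.61 (exact permutation p = 0.004398, adjusted p = 0.1134) and F2 by 0.74 (exact permutation p = 0.007559, adjusted p = 0.1134) on the log2 scale. For SLC1A2, F1 exceeded F2 by 0.55 (exact permutation p = 0.02916, adjusted p = 0.2916). With size factors the GLUL differences were 0.55 (exact permutation, adjusted p = 0.05334) and 0.60 (exact permutation, adjusted p = 0.05433). Without the F3 Veh animal SGM14, the GLUL difference between F1 and F3 had an adjusted p-value of 0.03608 in the exact permutation test, and no other omission brought any of the 30 under 0.05.

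A ratio within an animal does not change when its library is divided by a single factor, as with size factors or total scaling. Quantile normalization and the authors' own normalization can change it. The ratio of GLUL or SLC1A2 to SLC1A3 was chosen after the values were seen, SLC1A2 and GLUL for being high and SLC1A3 for being nearly level in F1, so the F1 ratios restate that choice and their p-values are no independent evidence. The 6 exact permutation tests were adjusted together. GLUL over SLC1A3 was 0.603, 0.566, 0.599, 0.607 and 0.646 in F1 Veh and 0.878, 0.947, 0.639, 0.691 and 0.744 in F1 sGC. A single sGC animal was inside the Veh range, and the mean log2 ratio was 0.35 higher in sGC (exact permutation p = 0.01587, adjusted p = 0.04762). SLC1A2 over SLC1A3 was 0.323, 0.388, 0.366, 0.355 and 0.423 in F1 Veh and 0.451, 0.618, 0.406, 0.431 and 0.443 in F1 sGC, a log2 difference of 0.33 (exact permutation p = 0.01587, adjusted p = 0.04762), also with 1 sGC animal inside the Veh range.

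In F2 the ratio of GLUL to SLC1A3 was lower in sGC. It was 1.25, 1.04, 1.22, 1.19 and 1.4 in Veh and 1.13, 1.05, 0.98, 0.929 and 0.973 in sGC, a log2 difference of -0.26 (exact permutation p = 0.02381, adjusted p = 0.04762). This adjusted p-value leans on the F1 ratios, whose smaller p-values share the adjustment and restate the choice of genes. Its place under 0.05 is therefore not read as a result. In F3 the ratio of GLUL to SLC1A3 was 0.949 to 1.14 in Veh and 0.935 to 1.04 in sGC, a log2 difference of -0.10 (exact permutation p = 0.08009, adjusted p = 0.1201). SLC1A2 over SLC1A3 differed by -0.10 in F2 (exact permutation, adjusted p = 0.2762) and 0.002 in F3 (exact permutation, adjusted p = 0.9784). The adjusted p-values of the 3 ratios under 0.05 lie close to that threshold: leaving out single animals kept their directions, with exact permutation p-values of at most 0.04762, but 5 of 10 omissions took the adjusted p-value over 0.05 for each F1 ratio (F1 Veh SGM3, SGM7, SGM11 or SGM15, or F1 sGC SGM8; at most 0.07937) and 8 of 10 for the F2 ratio (all but F2 Veh SGM23 and F2 sGC SGM21; at most 0.09524).

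**Figure D3:**
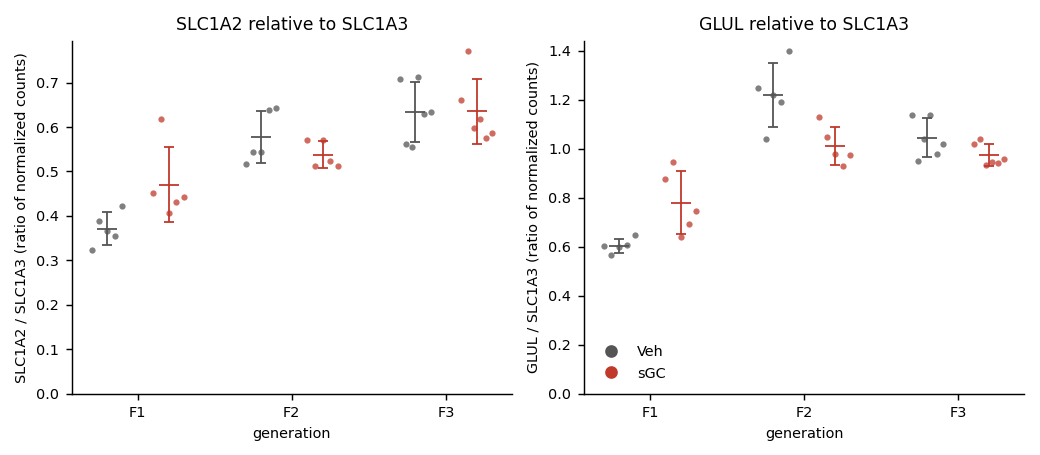
Ratio of SLC1A2 and of GLUL to SLC1A3 within each animal (vertical axis, a ratio of normalized counts with no unit, from 0) by generation, with the mean ± SD for Veh in grey and sGC in red. The F1 sGC animals sit at 0.639 to 0.947 for GLUL, mostly above the Veh animals at 0.566 to 0.646, and in F2 most sGC animals sit below the Veh animals.

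The partners of these genes in the glutamate and energy cycle had mostly small fold changes. Of 10 tested transporters and enzymes for glutamate, glutamine, glucose and lactate, 1 was higher at an unadjusted p-value under 0.05 in F1, 2 were lower in F2 and 1 was lower in F3, with list medians of 0.01, -0.09 and 0.01 on the log2 scale. The matching shares of all genes were 12.1%, 9.17% and 6.92%. SLC2A1, the glucose transporter of the blood-brain barrier and astrocytes, had a log2 fold change of 0.35 ± 0.14 (SE) in F1 (limma, adjusted p = 0.282) and of -0.24 ± 0.08 (SE) in F2 (limma, adjusted p = 0.3103). In F2, SLC17A7, a vesicular glutamate transporter of neurons, had -0.56 (limma, adjusted p = 0.4019). In F3, SLC38A1, a glutamine transporter, had -0.06 (limma, adjusted p = 0.3398).

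AQP4, the water channel of the astrocyte end-foot, had values of 48099, 43266, 37038, 29512 and 29880 normalized counts in F1 Veh and 43722, 33080, 41461, 43229 and 36475 in F1 sGC, with sGC wholly inside the Veh range (log2 fold change 0.10, interval -0.22 to 0.41). In F2 it had 69737, 53785, 53062, 37405 and 52991 in Veh and 54643, 74433, 61744, 48585 and 63766 in sGC, with 4 of 5 sGC animals above the Veh median (log2 fold change 0.20, interval -0.14 to 0.54). In F3 it ranged from 71628 to 82303 in Veh (median 78745) and from 75809 to 91481 in sGC (median 85168). Of the 6 sGC animals in F3, 4 lay above every Veh animal, and the log2 fold change was 0.10 ± 0.05 (SE; limma, unadjusted p = 0.05315, adjusted p = 0.385). Among those 4 were SGM21 (85695) and SGM22 (84641), the animals of the second batch.

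GJA1, the gap junction protein connexin 43 that couples astrocytes, was nearly level throughout. It had 18432, 20296, 17168, 17209 and 14765 normalized counts in F1 Veh and 19856, 19006, 15885, 18655 and 15810 in F1 sGC (log2 fold change 0.02, interval -0.23 to 0.28), and the sign turned to -0.04 with size factors. In F2 it ranged from 6826 to 9770 in Veh and from 6505 to 9898 in sGC (-0.02, interval -0.27 to 0.23, and 0.05 with size factors). In F3 it ranged from 8886 to 10450 in Veh (median 9141) and from 9056 to 9883 in sGC (median 9276), with an interval from -0.07 to 0.08.

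Among 7 tested end-foot and gap junction partners, 2 were higher at an unadjusted p-value under 0.05 in F1, 1 was lower in F2 and 1 higher in F3. The matching shares of all genes were 12.1%, 9.17% and 6.19%. The list medians were 0.24, -0.14 and 0.03, against 0.07, -0.08 and -0.002 for all genes. TJP1, a scaffold of tight and gap junctions, had 1837 ± 228 (SD, n = 5) normalized counts in F1 Veh and 2603 ± 517 (SD, n = 5) in F1 sGC (log2 fold change 0.49, limma, adjusted p = 0.08455; with size factors 0.43, adjusted p = 0.01972). TRPV4, an osmosensitive channel, had 0.48 in F1 (limma, adjusted p = 0.3662), and CLCN2, a chloride channel, had -0.32 in F2 (limma, adjusted p = 0.3939). DAG1, the dystroglycan that anchors AQP4 at the end-foot, went from 8378 ± 129 (SD, n = 6) in F3 Veh to 8805 ± 173 (SD, n = 6) in F3 sGC, groups that did not overlap, with a log2 difference of 0.07 (limma, adjusted p = 0.1708).

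GFAP, the intermediate filament protein of astrocytes, varied most between animals of the 10 genes in F1 Veh, both F2 groups and both F3 groups. It had 24616, 13377, 12506, 13743 and 6114 normalized counts in F1 Veh and 10243, 9283, 10536, 15328 and 12573 in F1 sGC. In F2 Veh it had 29089, 10895, 10892, 3088 and 7870, a coefficient of variation of 79.9%, and in F2 sGC 7903, 19215, 14680, 9094 and 13148. The sGC values lay inside the Veh range in both generations. Fold changes on the log2 scale were -0.17 in F1 with an interval from -0.64 to 0.31 and 0.33 in F2 with an interval from -0.63 to 1.29. Leaving out F1 Veh SGM3 gave 0.07 in F1, and leaving out F2 Veh SGM28 gave -0.08 in F2.

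In F3, GFAP ranged from 9814 to 16729 normalized counts in Veh (median 12114) and from 7045 to 13664 in sGC (median 12584). The lowest sGC value belonged to SGM21, an animal of the second batch. The log2 fold change was -0.10 with an interval from -0.42 to 0.22, and 0.03 with the first batch alone. Of 13 tested reactive astrocyte genes in F1, 12 in F2 and 13 in F3, the numbers with unadjusted p-values under 0.05 were 0, 0 and 1. The exception, NES, the filament protein nestin, had 284 ± 31.9 (SD, n = 6) in F3 Veh and 337 ± 23.7 (SD, n = 6) in F3 sGC (log2 fold change 0.25, limma, adjusted p = 0.1769). The medians of that list were 0.05, 0.06 and 0.06.

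S100B, a calcium-binding protein of astrocytes and some oligodendrocytes, had 7879, 8201, 7029, 5973 and 7010 normalized counts in F1 Veh and 7929, 12505, 6130, 6901 and 7982 in F1 sGC. The groups overlapped, and the F1 log2 fold change of 0.16 became 0.004 without SGM8. In F2 it had 8329, 6727, 7387, 6586 and 8320 in Veh and 6236, 7756, 7317, 4678 and 6166 in sGC, with 3 sGC animals below all Veh animals (log2 fold change -0.23, interval -0.50 to 0.04, limma, adjusted p = 0.5001).

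In F3, S100B ranged from 8086 to 9745 normalized counts in Veh (median 8904) and from 7299 to 8786 in sGC (median 8538). All 6 sGC animals were below the Veh median, as they were for GLUL. The log2 fold change was -0.11 ± 0.05 (SE; limma, unadjusted p = 0.04569, adjusted p = 0.3725; exact permutation p = 0.09307), and -0.11 with the first batch alone.

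ALDH1L1, a folate enzyme and a broad astrocyte marker, had 1204, 1274, 1027, 984 and 827 normalized counts in F1 Veh and 1533, 1329, 1058, 1189 and 1131 in F1 sGC, with all 5 sGC animals above the Veh median (log2 fold change 0.24, interval -0.04 to 0.52, limma, adjusted p = 0.4787). In F2 it ranged from 850 to 1352 in Veh and from 939 to 1398 in sGC (0.10, interval -0.17 to 0.37). In F3 it ranged from 1322 to 1433 in Veh (median 1401) and from 1374 to 1515 in sGC (median 1468). Of the 6 F3 sGC animals, 4 lay above every Veh animal, at a log2 fold change of 0.07 ± 0.03 (SE; limma, unadjusted p = 0.04937, adjusted p = 0.3809; exact permutation p = 0.05844). The second-batch animals SGM21 (1470) and SGM22 (1467) were among those 4.

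ALDOC, the brain aldolase of glycolysis, had 26880, 27683, 23610, 19988 and 22380 normalized counts in F1 Veh and 26218, 33604, 24103, 23096 and 21195 in F1 sGC, with most sGC animals inside the Veh range (log2 fold change 0.08, interval -0.21 to 0.37). In F2 it had 24289, 21989, 25794, 23542 and 27993 in Veh and 26327, 23022, 22308, 18338 and 19657 in sGC (-0.18, interval -0.41 to 0.05, limma, adjusted p = 0.5368). In F3 it varied least of the 10 genes within sGC, from 27497 to 29123 (median 27908), against 26101 to 29639 in Veh (median 27970), with an interval from -0.05 to 0.08.

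SOX9, the transcription factor that directs glial identity, was at low values near 100 normalized counts or less in most animals. It had 85, 100, 68, 82 and 37 in F1 Veh and 91, 79, 111, 104 and 96 in F1 sGC, with 4 of 5 sGC animals above the Veh median (log2 fold change 0.43, interval -0.04 to 0.90, limma, adjusted p = 0.4224). The value of 37 carried much of this difference: without F1 Veh SGM19 the log2 fold change was 0.20. In F2 it had 129, 67, 106, 60 and 68 in Veh and 78, 87, 135, 86 and 95 in sGC (0.20, interval -0.29 to 0.68). In F3 it ranged from 85 to 96 in Veh (median 88) and from 89 to 112 in sGC (median 94), with all 6 sGC animals above the Veh median. Its log2 fold change there was 0.13 ± 0.07 (SE; limma, adjusted p = 0.4528; exact permutation p = 0.04113) and 0.19 with the first batch alone.

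Of 9 other tested transcription factors of the astrocyte lineage, NFIX passed the adjusted threshold in F1, the only gene of the lists used here to do so in any generation on the deposited scale. NFIX, a nuclear factor I protein active in gliogenesis, rose from 801 ± 149 (SD, n = 5) normalized counts in F1 Veh to 1268 ± 110 (SD, n = 5) in F1 sGC, with groups that did not overlap (log2 fold change 0.68 ± 0.13 SE, limma, adjusted p = 0.01946). It was 0.62 with size factors (adjusted p = 0.0008375), and the adjusted p-value went over 0.05 without F1 Veh SGM11 (0.06126), SGM15 (0.05584) or SGM19 (0.05008). PAX6, a homeobox factor of neural progenitors, had -0.62 in F1 (limma, adjusted p = 0.1692). RFX4 had 0.28 in F2 (limma, adjusted p = 0.3938) and ID3, an inhibitor of helix-loop-helix factors, 0.31 in F3 (limma, adjusted p = 0.302). The list medians were 0.07, 0.06 and -0.01.

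Of 29 further astrocyte genes tested in each generation, 6 were higher and 0 lower at an unadjusted p-value under 0.05 in F1, 0 higher and 6 lower in F2, and 3 higher and 2 lower in F3. Their medians were 0.13, -0.06 and 0.03. In F1, SLC4A4, a sodium bicarbonate transporter, went from 5417 ± 542 (SD, n = 5) to 7729 ± 1465 (SD, n = 5) with groups apart (log2 fold change 0.50, limma, adjusted p = 0.07958; with size factors 0.44, adjusted p = 0.02611). NFIA, a gliogenic factor, had 0.32 (limma, adjusted p = 0.2275).

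In F2, the lower genes of that list were led by GRM3, a metabotropic glutamate receptor, from 2150 ± 171 (SD, n = 5) to 1735 ± 154 (SD, n = 5; log2 fold change -0.31, limma, adjusted p = 0.1532), and MT3, a metallothionein, from 6155 ± 799 (SD, n = 5) to 4595 ± 603 (SD, n = 5; -0.42, limma, adjusted p = 0.1577). Both had groups apart. S1PR1, a sphingosine 1-phosphate receptor, had -0.28 (limma, adjusted p = 0.2315). In F3, EDNRB, the endothelin B receptor, had 0.18 (limma, adjusted p = 0.1249), FGFR3 -0.08 (limma, adjusted p = 0.236) and BCAN, the proteoglycan brevican, 0.08 (limma, adjusted p = 0.3393).

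The 10 genes did not vary as a block. After the mean of each group had been removed, Pearson's r between pairs of genes over the 32 animals ran from -0.03 to 0.90, with a median of 0.61 over 45 pairs. With size factors it ran from -0.61 to 0.85, with a median of 0.39. The values of a gene pair share a library and its scaling, and the correlations are given as a description.

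GLUL, S100B and SLC1A2 went together on both scales. S100B and GLUL had r = 0.90 and a Spearman rho of 0.84 as deposited, and r = 0.85 and rho = 0.66 with size factors. With size factors r was 0.89 in F1, 0.78 in F2 and 0.82 in F3, and 0.70 without the 2 animals farthest from the median. SLC1A2 had r = 0.76 with GLUL and 0.78 with S100B with size factors, and within generations from 0.58 to 0.84 and from 0.66 to 0.88. ALDOC had r = 0.72 with GLUL with size factors (0.89, 0.49 and 0.47 in F1, F2 and F3). Its r was 0.60 with S100B (0.86, 0.07 and 0.23) and 0.60 with SLC1A2 (0.86, 0.47 and -0.06), values that were highest in F1.

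GFAP varied with AQP4 and with SOX9 in F1 and F2. With size factors GFAP had r = 0.75 and rho = 0.61 with AQP4 and r = 0.67 and rho = 0.52 with SOX9, but in F3, where animals differed little, these were -0.03 and 0.31, so they rest on F1 and F2. AQP4 and SOX9 had r = 0.39 and rho = 0.20 with each other, and -0.12 in F3. GFAP also had r = 0.62 with ALDH1L1 (0.28, 0.92 and 0.01 in F1, F2 and F3). AQP4 had 0.50 with ALDH1L1 (0.15, 0.84 and -0.12) and 0.50 with GJA1 (-0.13, 0.94 and -0.23). The values of these pairs over all animals rest mostly on F2. SOX9 and ALDOC had r = -0.61 and rho = -0.65, negative in each generation (-0.66, -0.62 and -0.40), whereas as deposited the pair had r = 0.01. ALDH1L1 and GJA1 had r = 0.71 with size factors (0.78 in F1, 0.80 in F2 and 0.12 in F3).

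**Figure D4:**
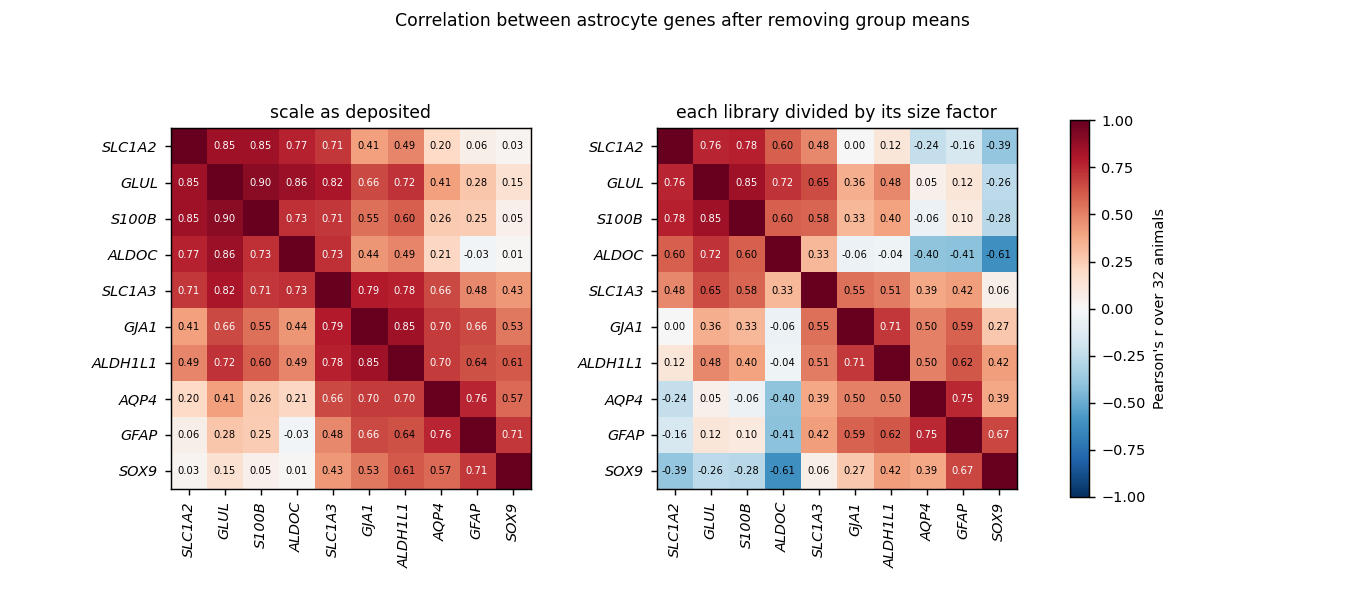
Pearson's r between each pair of astrocyte genes over 32 animals after removal of the group means, on the deposited scale and with each library divided by its size factor, coloured from -1 (blue) to 1 (red). SLC1A2, GLUL and S100B are red with each other on both scales, and SOX9 and ALDOC are blue once size factors are used, at -0.61.

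The genes most like the mean of the 10, over the same 32 animals and among 11429 genes tested in every table, were LRIG1 (r = 0.95), DAZAP2 (0.95), FAM189A2 (0.93), SLC25A26 (0.93), NDRG2 (0.93), HADHB (0.92), SNX18 (0.92), HIATL1 (0.91), GOLGA7 (0.91) and USP54 (0.91). With size factors LRIG1 led again, at 0.86, and NDRG2, itself an established astrocyte gene, had 0.80. Of the 10 astrocyte genes, SLC1A3 was nearest to the mean of the others (0.91, and 0.77 with size factors) and SOX9 farthest from it (0.43, and 0.05 with size factors).

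The share of the library total held by the 10 genes together was 1.08 to 1.27% in F1 Veh and 1.11 to 1.43% in F1 sGC, 0.825 to 1.25% and 0.946 to 1.26% in F2, and 1.31 to 1.48% and 1.36 to 1.498% in F3. In F1 and F2, some markers of other cells had larger fold changes. Of 8 PVN neuron genes, among them the neuropeptides OXT, AVP and TRH, 5 were lower at an unadjusted p-value under 0.05 in F1 (list median -0.79) and 5 higher in F2 (0.30), with 0 in F3 (-0.02). Among all genes, 1.46% were lower in F1 and 2.49% higher in F2. In F1, sGC minus Veh on the log2 scale was -1.54 for OXT (limma, adjusted p = 0.08841), -1.47 for AVP (limma, adjusted p = 0.1095) and -0.94 for TRH (limma, adjusted p = 0.08021). In F2, OXT had 0.65 (limma, adjusted p = 0.2442), OTP 0.32 (limma, adjusted p = 0.278) and POU3F2 0.28 (limma, adjusted p = 0.2781).

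The summed share of the PVN neuron genes went from 0.616 to 1.169% in F1 Veh and from 0.125 to 1.016% in F1 sGC. It was lowest in SGM4 (0.125%), SGM8 (0.172%) and SGM20 (0.300%). SGM4 and SGM8 were also the animals highest in GLUL and SLC1A2. SGM20 was not: its GLUL was at 39084 and its SLC1A2 at 23278, both between the values of SGM12 and SGM16. In the other two sGC animals, SGM12 (0.790%) and SGM16 (1.016%), the PVN neuron share was inside the Veh range. There GLUL was at 36032 and 39775, against 26385 to 37983 in Veh, and SLC1A2 at 22879 and 24811, against 15460 to 26080.

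Within groups, animals with more PVN neuron transcripts had less of GLUL, S100B and SLC1A2. With size factors, r with the mean of the 8 PVN neuron genes over 32 animals was -0.59 for S100B (rho -0.66), -0.56 for SLC1A2 (rho -0.69) and -0.59 for GLUL (rho -0.52). It was negative in each generation, from -0.73 to -0.58, from -0.70 to -0.47 and from -0.70 to -0.39. On the deposited scale these were weaker, at -0.37, -0.28 and -0.27. With size factors ALDOC had -0.34 (-0.55, -0.48 and 0.49 in F1, F2 and F3) and ALDH1L1 had -0.30 (-0.66, -0.12 and 0.35). SLC1A3 had -0.12 (-0.30, -0.07 and 0.13) and GJA1 -0.02 (-0.40, -0.03 and 0.70). GFAP, AQP4 and SOX9 had 0.10, 0.08 and 0.27. With the general neuron genes instead, also with size factors, r was -0.75 for GFAP, -0.78 for AQP4, -0.62 for ALDH1L1 and -0.60 for SOX9. It was -0.47 for GJA1, -0.19 for SLC1A3, 0.10 for GLUL, 0.17 for S100B, 0.39 for SLC1A2 and 0.60 for ALDOC. In F3, GFAP, AQP4, ALDH1L1 and SOX9 had -0.002, -0.09, -0.56 and 0.62. On the deposited scale their r over all animals was -0.40, -0.19, 0.03 and -0.11. The part of neuron content was not tested. The part of the PVN neuron share in the F1 and F2 values of GLUL and SLC1A2 was not tested.

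**Figure D5:**
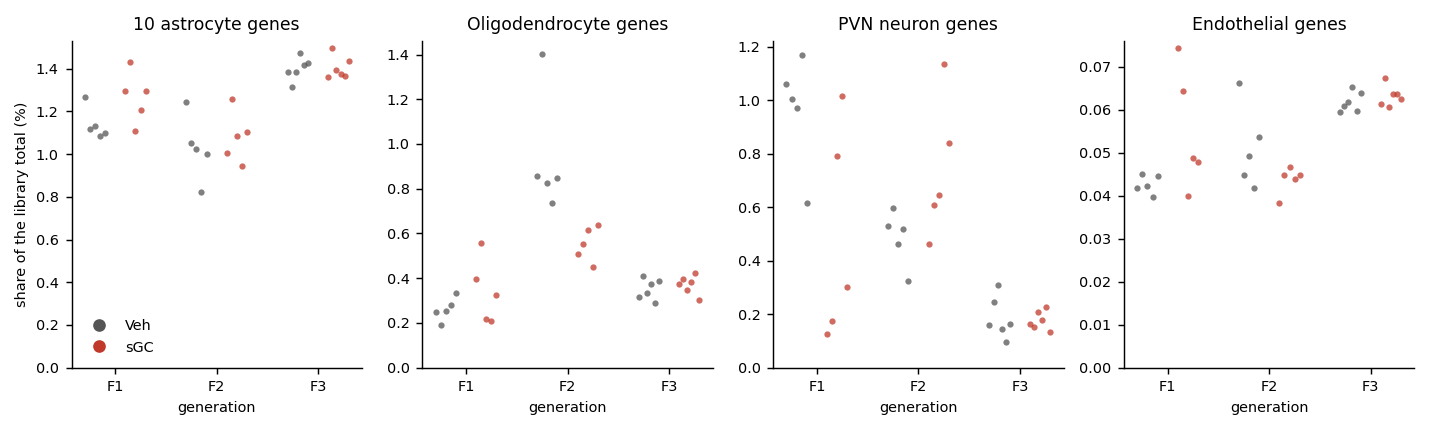
Summed share of the library total in percent (vertical axis, from 0, with its own range in each panel) of the 10 astrocyte genes, the oligodendrocyte genes, the PVN neuron genes and the endothelial genes, with 1 point per animal for Veh in grey and sGC in red. In F1, 3 sGC animals fall below all Veh animals for PVN neuron genes, and in F2 all sGC animals lie below all Veh animals for oligodendrocyte genes.

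Oligodendrocyte genes, which encode myelin proteins, had 1 of 9 higher at an unadjusted p-value under 0.05 in F1 (median 0.25), 9 of 10 lower in F2 (median -0.79) and 2 of 9 higher in F3 (median 0.12). The matching shares of all genes were 12.1%, 9.17% and 6.19%. The oligodendrocyte genes together held 0.189 to 0.335% of the library total in F1 Veh and 0.210 to 0.556% in F1 sGC, with SGM8 highest. In F2 their share was 0.737 to 1.401% in Veh and 0.452 to 0.638% in sGC, groups that did not overlap, and in F3 0.290 to 0.409% and 0.302 to 0.424%. In F2, UGT8 was at a log2 change of -0.75 (limma, adjusted p = 0.05498), MOG -0.81 (limma, adjusted p = 0.06216) and MOBP -0.95 (limma, adjusted p = 0.06216). In F1, MBP had 0.48 (limma, adjusted p = 0.3175), and in F3 OPALIN had 0.23 (limma, adjusted p = 0.3113) and ASPA 0.25 (limma, adjusted p = 0.3514). Of the astrocyte genes, S100B had r = 0.58 with the oligodendrocyte genes with size factors and GLUL 0.54, led by F1 (0.82 and 0.86) and near or below 0 in F3 (-0.26 and -0.04). Close to these were ALDOC at 0.52 (0.88 in F1), SLC1A2 at 0.49, SLC1A3 at 0.47, ALDH1L1 at 0.42 and GJA1 at 0.41. AQP4, GFAP and SOX9 had -0.04, -0.08 and -0.27. Without the 2 animals farthest from the median, S100B had 0.33 and GLUL 0.30. ALDOC and GJA1 then had 0.41, SLC1A3 0.39, SLC1A2 0.31 and ALDH1L1 0.29. The part of oligodendrocyte RNA in the values of GLUL and S100B was not tested.

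Endothelial genes had 6 of 10 higher in F1 (median 0.39), 4 of 10 lower in F2 (-0.31) and 1 of 10 higher in F3 (0.04) at an unadjusted p-value under 0.05. The matching shares of all genes were 12.1%, 9.17% and 6.19%. Endothelial genes held 0.0397 to 0.0450% of the library total in F1 Veh and 0.0400 to 0.0743% in F1 sGC, again highest in SGM4 and SGM8. CDH5, a cadherin of vessel walls, was at 0.82 on the log2 scale in F1 (limma, adjusted p = 0.08304) and at -0.53 in F2 (limma, adjusted p = 0.3117). GLUL had r = 0.64 with the endothelial genes with size factors (0.77 in F1, 0.40 in F2 and 0.60 in F3). ALDH1L1 had 0.68 (0.71, 0.77 and -0.01). S100B had 0.50, SLC1A2 0.41, GJA1 0.37, SLC1A3 0.32, ALDOC 0.27, GFAP 0.21, AQP4 0.20 and SOX9 0.04. The part of vessel content was not tested either.

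Tanycyte and ependymal genes share markers with GFAP, AQP4 and SOX9. Of 7 tested in F1, 6 in F2 and 7 in F3, 1 was higher at an unadjusted p-value under 0.05 in each generation, with medians of 0.03, 0.19 and 0.01. The matching shares of all genes were 12.1%, 2.49% and 6.19%. In F2 the tanycyte and ependymal genes together held 0.0340 to 0.03742% of the library total in Veh and 0.03749 to 0.0457% in sGC. These groups were apart by a very small margin. SPAG6, the gene higher in F2, had overlapping groups, at 245 to 1512 normalized counts in Veh and 890 to 1896 in sGC (log2 fold change 0.86, limma, adjusted p = 0.3938). With size factors GFAP had r = 0.59 with the tanycyte and ependymal genes (0.54, 0.74 and 0.49 in F1, F2 and F3), SOX9 0.61 (0.56, 0.80 and 0.29) and AQP4 0.48 (0.69, 0.63 and -0.41), whereas ALDOC had -0.73 (-0.91, -0.51 and -0.52). The part of ventricle-lining cells in the spread of GFAP, AQP4 and SOX9 was not tested.

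The other lists gave the following. General neuron genes had 1 of 9 higher in F1, 0 of 8 in F2 and 1 higher and 3 lower of 8 in F3 (medians 0.14, -0.20 and -0.05). Oligodendrocyte precursor genes had 1 of 4 higher in F1, 4 of 5 lower in F2 and 1 of 5 higher in F3 (0.19, -0.40 and 0.04). Microglia genes had 2 of 7 higher in F1, 0 of 6 in F2 and 0 of 7 in F3 (0.31, -0.19 and 0.11), and fibroblast genes 0 of 1, 2 of 2 lower and 0 of 6 (0.56, -0.46 and 0.06). All these counts are at an unadjusted p-value under 0.05 in limma. At that threshold 12.1% of all genes were higher in F1, 9.17% lower in F2, and 6.19% higher and 6.92% lower in F3. With the microglia genes and size factors, r was 0.72 for GJA1, 0.70 for ALDH1L1 and 0.56 for GLUL. The other astrocyte genes ran from 0.10 (SLC1A2) to 0.46 (AQP4), and the part of microglia was not tested.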

How the data were processed

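Per the study's methods, the authors mapped mRNA reads of PVN micropunches to cavPor3 and obtained gene counts with GenomicAlignments. ComBat was applied to F3, for its batches, and the residual method of RUVSeq to every generation. The deposited values, made by the authors in this way, are normalized counts in whole numbers and are handled as a score, since they are no longer raw reads. The deposited log values lack 1 direction of variation in F1, 1 in F2 and 2 in F3 (singular values near 0), which can narrow the spread between animals. In F3, ComBat and the residual method cannot be told apart as its source. The tables also hold the authors' own fold changes, likelihood ratios, dispersions and p-values, which were not used, and the number of value columns left out was 0. The 2 re-sequenced F3 Veh libraries were not analysed here.

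Genes averaging at least 10 were fitted with limma (version 3.58.1, R 4.3.3, moderated with a mean-variance trend), separately per generation, after adding a pseudocount of 1 and taking log2. P-values were adjusted by Benjamini-Hochberg over all genes tested, with a threshold of 0.05, and libraries were not scaled further. Single values were tested by two-sided exact permutation, with a smallest possible p-value of 0.00794 for 5 against 5 and 0.00216 for 6 against 6. Alternatives were size factors, total scaling, quantile normalization, other pseudocounts and filters, the removed directions or the F3 batch as covariates, leaving out each animal and, added after the data were seen, the animal number as a block. The fit was tested on simulated data. The members, lists and tests were chosen with earlier results of these data known. All members are named, and from each other list up to 3 genes per generation with the smallest unadjusted p-values under 0.05. A gene that this rule names in F1 is not reported here. No annotation of the cavPor3 build was used here, so no coordinates or sequences are given.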

Additional observations from a re-analysis of the deposited data

Results flagged for a closer look

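In 60 groups of animals (10 astrocyte genes in 6 groups), 3 held an animal far from the rest by Dixon's criterion, and chance flags about 1 in 20 groups, which is 3 of 60. SLC1A2 in the F1 sGC animal SGM8 stood at 15.39 on the log2 scale (42808 normalized counts), against 14.48 to 14.71 in the other sGC animals (22879 to 26799). GFAP in the F3 sGC animal SGM21, from the second sequencing batch, stood at 12.78 (7045 normalized counts), against 13.47 to 13.74 (11359 to 13664). GJA1 in the F3 Veh animal SGM17 stood at 13.35 (10450 normalized counts), against 13.12 to 13.20 (8886 to 9427).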

How the results depend on the processing

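The number of animals limits the precision, and depth could not be judged because the values are not raw reads. The count of F1 astrocyte genes under the adjusted threshold was 1 with size factors (17.3% of all genes), 1 with total scaling (16.4%; GLUL, 0.45, limma adjusted p = 0.03628) and 2 with quantile normalization (17.6%), against 0 as deposited (0.657%). With other pseudocounts and filters, with the removed directions as covariates and without each animal it stayed at 0, and the counts in F2 and F3 were 0 throughout. The causes were not tested. Some directions turned. With size factors the log2 fold change became -0.04 for GJA1 in F1, 0.01 for SLC1A2 and 0.05 for GJA1 in F2, and 0.0007 for SLC1A2 in F3. With total scaling it became -0.03 for GJA1 in F1, and 0.01 for SLC1A2 and 0.06 for GJA1 in F2. With quantile normalization it became -0.01 for AQP4 in F1, 0.04 for SLC1A2 and 0.06 for GJA1 in F2, and 0.01 for SLC1A3 and -0.0008 for ALDOC in F3. With the F3 batch as a covariate or the first batch alone it became 0.03 for GFAP, 0.05 for SLC1A2 and -0.01 for ALDOC. Leaving out each animal gave ranges that crossed 0. In F1 these were -0.44 to 0.07 for GFAP, -0.04 to 0.08 for GJA1 and -0.02 to 0.14 for ALDOC. In F2 they were -0.08 to 0.73 for GFAP, -0.12 to 0.02 for SLC1A2, -0.03 to 0.11 for SLC1A3 and -0.09 to 0.06 for GJA1. In F3 they were -0.16 to 0.04 for GFAP, -0.06 to 0.04 for SLC1A2, -0.03 to 0.01 for SLC1A3, -0.01 to 0.04 for GJA1 and -0.01 to 0.03 for ALDOC. Leaving out each animal in turn, added after the data were seen, gave 0 to 1 differences between generations under the adjusted threshold, the 1 being GLUL without F3 Veh SGM14. The column names number the animals within each group. With group means removed, animals of the same number correlated between Veh and sGC at -0.24 to 0.31 in F1, -0.41 to 0.22 in F2 and -0.54 to 0.19 in F3, over 0.1 in 1 of 5, 1 of 5 and 2 of 6 pairs, and 1 of 5, 1 of 5 and 0 of 6 Veh animals correlated best with their own number, so the number was not taken as a pairing. With that replicate block, also added after the data were seen, the astrocyte genes under the adjusted threshold were 2 in F1 (limma, adjusted p = 0.03721 for GLUL and 0.04169 for SLC1A2), 0 in F2 and 0 in F3. All genes under it went from 78 to 146, from 0 to 6 and from 6 to 0. With size factors and the block there were 0 astrocyte genes in every generation (adjusted p = 0.06746 for GLUL in F1), and all F1 genes went from 2058 to 771. The log2 fold changes were those without the block.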
